A study of Mus musculus with 8 samples.

Results

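The mRNAs of 10 nuclear genes that encode antioxidant enzymes and metal-binding proteins were followed in RNA from purified mouse liver mitochondria. These were the peroxide-removing enzymes Gpx1, Cat, Prdx1 and Prdx5, the superoxide dismutases Sod1 and Sod2, the metallothioneins Mt1 and Mt2, and the ferritin chains Fth1 and Ftl1. The genes were taken from a fixed list, and each transcript row of the count table whose Ensembl identifier maps to a listed gene was summed per gene. All 10 genes had at least 1 count, out of 6449 nuclear genes with a count once rows copying mitochondrial genes had been set aside. The samples came from wild-type (WT) C57BL/6N mice aged 12 weeks (12 W) or 65 weeks (65 W), with 4 libraries in each age group and no treatment that distinguishes the groups. The study describes its 12 W mice as female and does not state a sex for the 65 W mice. If the sexes differed, age and sex could not be told apart in any comparison of the groups below. Liver mitochondria were isolated by differential centrifugation, treated with a nuclease that digests RNA and DNA outside the organelles, purified on a sucrose gradient and sequenced as barcoded Nanopore cDNA. The mRNAs described here are made in the nucleus and translated outside mitochondria, so they are RNA that remained in the preparation through this purification. Whether they were attached to mitochondria or carried over with other material was not tested.

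Superoxide is formed when electrons leave the respiratory chain early, and superoxide dismutases turn it into hydrogen peroxide, Sod2 in the mitochondrial matrix and Sod1 mainly in the cytosol. Hydrogen peroxide is then removed by catalase in peroxisomes, by the selenium enzyme glutathione peroxidase 1 and by peroxiredoxins, of which Prdx1 is mostly cytosolic and Prdx5 is found in mitochondria, peroxisomes and the cytosol. Ferritin stores iron, and metallothioneins bind zinc and copper, which limits the free metal ions that can take part in radical chemistry. The liver is rich in all of these proteins.

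The features that define several of these mRNAs can be read in the reference transcripts. The ferritin mRNAs carry an iron-responsive element in the 5′ untranslated region, a hairpin to which iron regulatory proteins bind when iron is scarce, and it is shown because it is the element that the ferritin mRNAs share. Its bulged C and its loop are in capitals, found on the transcript strand only with a motif of C, any 5 bases, CAGTG and any base. The same motif occurred in the 5′ untranslated regions of 7.07% of the 6393 protein-coding transcripts of the table with such a region of at least 12 nt. A match is a description of these letters and not evidence of binding. The Fth1 window lies on the plus strand at chr19:9982731-9982760 of GRCm38, and the Ftl1 window lies on the minus strand at chr7:45459779-45459808.
Fth1: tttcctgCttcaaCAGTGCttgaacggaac
Ftl1: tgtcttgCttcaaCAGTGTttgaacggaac

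Gpx1 is shown around its only in-frame TGA before the stop codon, at codon 47 and in capitals, which is read as selenocysteine in the active site of the enzyme. The stretch lies on the plus strand at chr9:108339421-108339483 of GRCm38.
Gpx1: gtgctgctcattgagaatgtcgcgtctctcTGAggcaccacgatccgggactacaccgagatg

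The coding sequences of Mt1 and Mt2 are shown whole because they make plain how these small proteins hold metals. Each has 62 codons with the stop codon, of which 20 are TGC or TGT, the cysteine codons given in capitals. The coding sequences are 79.6% identical. They lie on the plus strand of chromosome 8, across 3 exons from 94179311 to 94180193 for Mt1 and from 94172848 to 94173427 for Mt2.
Mt1: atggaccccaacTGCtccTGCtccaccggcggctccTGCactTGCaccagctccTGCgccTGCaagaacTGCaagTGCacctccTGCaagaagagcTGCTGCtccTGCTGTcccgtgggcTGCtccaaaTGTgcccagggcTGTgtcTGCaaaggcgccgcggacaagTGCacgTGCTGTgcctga
Mt2: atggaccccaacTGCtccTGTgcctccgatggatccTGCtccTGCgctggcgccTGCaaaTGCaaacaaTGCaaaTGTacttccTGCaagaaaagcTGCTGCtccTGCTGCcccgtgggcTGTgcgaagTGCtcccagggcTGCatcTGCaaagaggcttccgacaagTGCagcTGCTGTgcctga

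Total counts per library were 104554 to 191092 for the 12 W mice and 12630 to 105252 for the 65 W mice. Mitochondria-encoded mRNAs and 17 nuclear rows that resemble mitochondrial transcripts held most of them. The other nuclear rows, to which all levels below are related, held 7604 to 20670 counts per library at 12 W and 1523 to 11093 at 65 W. A single count therefore equals between 0.484 and 1.32 counts per 10000 other nuclear counts at 12 W, and 6.57 in 65W-1, 1.64 in 65W-2, 3.07 in 65W-3 and 0.901 in 65W-4. Libraries 65W-1 and 65W-3 had fewer than 50000 counts in all. Alb, the hepatocyte marker, had 983 ± 127 counts per 10000 at 12 W and 801 ± 113 at 65 W (SD, n = 4 each), and its fitted change was -0.050 on the log2 scale (adjusted p = 0.941 from edgeR). Lars2, the mitochondrial leucyl-tRNA synthetase and the tested nuclear gene with the most counts, took 12.7 to 24.4% of the other nuclear counts in the 12 W libraries and 11.3 to 36.7% in the 65 W libraries, with the highest value in 65W-1. Its part in the shares given next was not tested beyond the setting without Lars2. In the libraries used here, less RNA of a gene per cell and fewer cells, or organelles with RNA attached, cannot be told apart.

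Together, the 10 genes took about 1% of the other nuclear counts at either age. Libraries 12W-1 to 12W-4 held 186, 67, 160 and 237 counts on them, against 13, 94, 39 and 155 counts in 65W-1 to 65W-4. As a share of the other nuclear counts this was 1.14%, 0.881%, 0.944% and 1.15% at 12 W, and 0.854%, 1.54%, 1.20% and 1.40% at 65 W. Group means were 1.03% ± 0.136 at 12 W and 1.25% ± 0.297 at 65 W (SD, n = 4 each). The groups overlapped, since 65W-1 had the lowest share of all 8 libraries while the other 3 libraries at 65 W lay above all libraries at 12 W. The value of 65W-1 is also the least precise, with a 95% Wilson interval of 0.5 to 1.45%. Such an interval covers counting error only and leaves out differences between mice. It also takes reads as independent, whereas PCR reads without molecular identifiers are not independent molecules, so it may be too narrow. Without 65W-1 the difference between the means grew from 0.218 to 0.350 percentage points, without 65W-2 it shrank to 0.121, and without both 65W-1 and 65W-3 it was 0.440. With Lars2 left out of the nuclear counts, a setting chosen after the data were seen, the means were 1.24% and 1.63%. With Lars2 kept and the nuclear rows that resemble mitochondrial transcripts counted in, the means were 0.484% at 12 W and 0.640% at 65 W. No test is given for the sum, because its members were chosen with results of these data known.

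**Figure D1:**
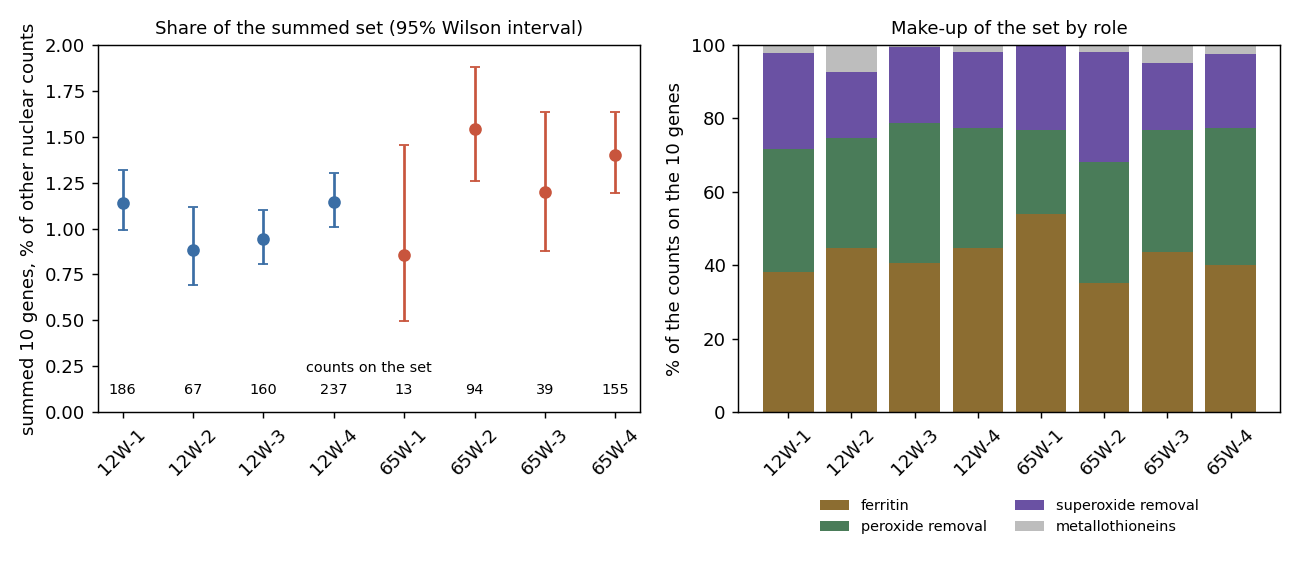
Left, the summed counts of the 10 genes as a percentage of the other nuclear counts in each library, with 95% Wilson intervals and the number of counts on the genes printed below. Right, the percentage of those counts on each role in each library; ferritin and peroxide removal make up most of the set in every library, and the interval of 65W-1, with 13 counts, spans the values of all 4 libraries at 12 W.

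The make-up of the set was close at both ages. Ferritin supplied 41.8% of its 650 counts at 12 W and 39.5% of its 301 counts at 65 W. Peroxide removal supplied 33.8% and 34.9%, superoxide removal 22% and 22.9%, and metallothioneins 2.31% and 2.66%. Counts were also concentrated within the roles, because Ftl1, Sod1, Fth1, Gpx1 and Prdx1 each had at least 123 counts over the 8 libraries, whereas Cat had 45, Mt1 21, Sod2 15, Prdx5 14 and Mt2 2. Sod2 and Prdx5, which encode proteins that are imported into mitochondria, held 29 of the 951 counts in all.

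Levels of different genes were compared per length of transcript, as counts per 10000 other nuclear counts and per kb, averaged over all 8 libraries. Sod1 was highest at 36.2 ± 13.3 (SD, n = 8), followed by Ftl1 at 26.8 ± 5.60, Fth1 at 22.5 ± 5.75 and Gpx1 at 14.5 ± 6.92. Prdx1 had 6.67 ± 2.07, Mt1 5.46 ± 4.37, Cat 2.03 ± 0.550, Prdx5 1.47 ± 1.53, Sod2 0.556 ± 0.434 and Mt2 0.305 ± 0.570. Neighbours in this order differed by less than the spread of their difference over the libraries, except Gpx1 and Prdx1, whose levels differed by 7.85 with an SD of the difference of 6.31. Sod1 lay above Ftl1 in 5 of 8 libraries, Ftl1 above Fth1 in 6, Fth1 above Gpx1 in 7 and Gpx1 above Prdx1 in 7. Among the 6449 nuclear genes with a count, ranked by the mean level per kb, Sod1 stood at place 28, Ftl1 at 40, Fth1 at 48 and Gpx1 at 66, against place 5 for Alb. Sod2 stood at place 1028. Ranked by the mean level without division by length, Ftl1 stood at place 46, Sod1 at 48, Fth1 at 52 and Gpx1 at 63. Sod2 then stood at 587 and Alb at 2. The order thus depends on the measure, and whether counts rise with transcript length in these long-read libraries was not tested.

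**Figure D2:**
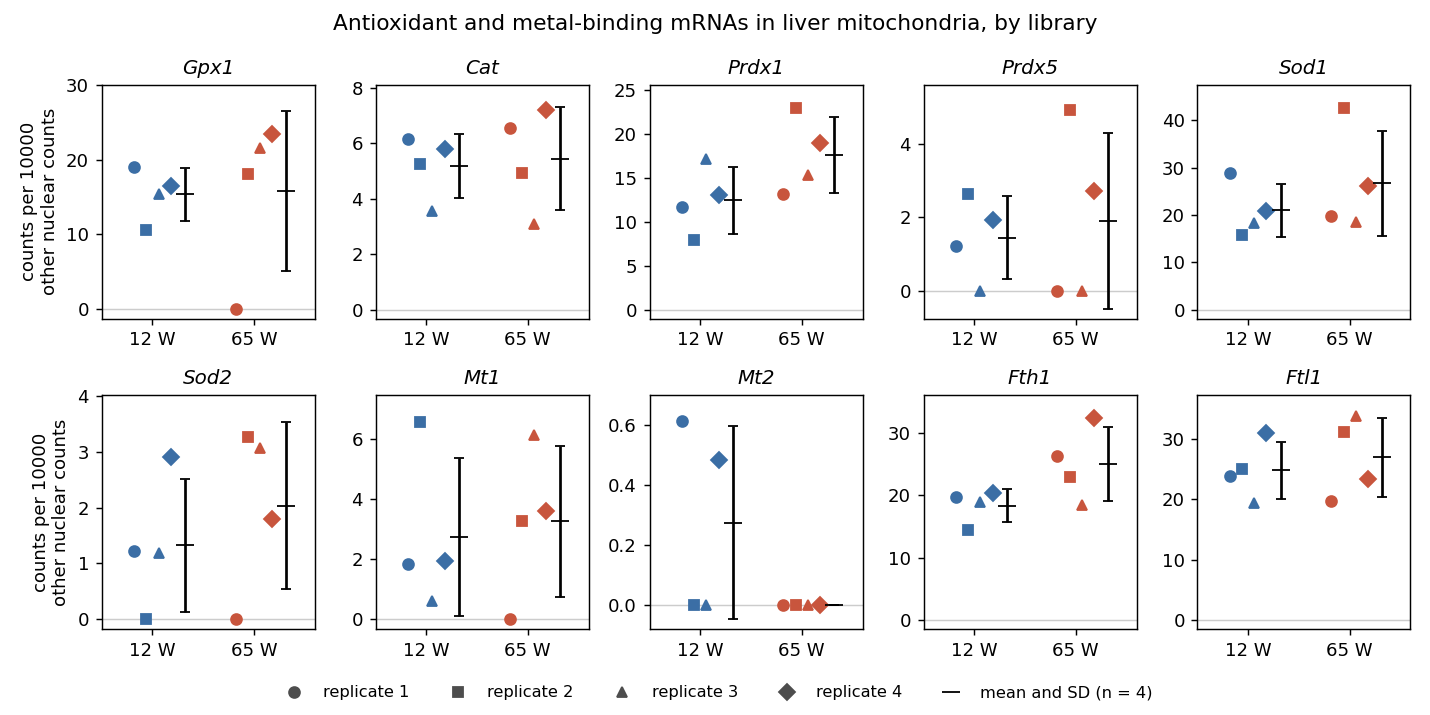
Counts per 10000 other nuclear counts of each of the 10 genes in the 4 libraries at 12 W (blue) and the 4 at 65 W (red), with a marker shape for each replicate number and the group mean with its SD in black; each panel has its own linear axis. The groups overlap in every panel, and Gpx1 shows a single library, 65W-1, at 0.

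Ferritin is built from a heavy chain, Fth1, which oxidises iron, and a light chain, Ftl1, which helps to form the mineral core. Fth1 (ENSMUSG00000024661.7, chromosome 19, 9980598 to 9985098) had 32, 11, 32 and 42 counts in 12W-1 to 12W-4 and 4, 14, 6 and 36 in 65W-1 to 65W-4. Relative to 10000 other nuclear counts, the 12 W libraries had 19.6, 14.5, 18.9 and 20.3, and the 65 W libraries had 26.3, 22.9, 18.4 and 32.5. Libraries 65W-1, 65W-2 and 65W-4 thus lay above all of those at 12 W, and 65W-3 lay among them. The fitted log2 fold change of 65 W over 12 W came to 0.68 (standard error 0.26, 95% interval 0.12 to 1.24). The unadjusted p was 0.0203 and the adjusted p was 0.162 (edgeR, quasi-likelihood test, Benjamini-Hochberg over all genes tested), so Fth1 did not pass the threshold of 0.05. In limma-voom, an alternative test on the same counts, Fth1 did pass, with a log2 fold change of 0.73 and an adjusted p of 0.0306.

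Ftl1 (ENSMUSG00000050708.16, chromosome 7, 45457944 to 45459884) had 39, 19, 33 and 64 counts at 12 W and 3, 19, 11 and 26 at 65 W. Per 10000, the 12 W libraries had 23.9, 24.99, 19.5 and 30.96 and the 65 W libraries had 19.7, 31.1, 33.8 and 23.4, and the groups overlapped over most of their range. The fitted log2 fold change came to 0.36 (standard error 0.29, 95% interval -0.26 to 0.98), with an adjusted p of 0.540 from edgeR. The light chain had 1.32 times the counts of the heavy chain per kb at 12 W and 0.980 times at 65 W. In single libraries the ratio of Ftl1 to Fth1 counts spanned 1.03 to 1.73 in the 12 W group and 0.722 to 1.83 in the 65 W group. The ranges overlap, and this difference was not tested.

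Ftl1 counts are uncertain, because Ftl1-ps1, an annotated copy on the plus strand of chromosome 13 (74406409 to 74407346), is 97.3% identical to an Ftl1 transcript over 930 nt. The coding sequences of Ftl1 and Ftl1-ps1 differ at 2 of 552 positions, both within the stretch shown here, where the differing bases are in capitals and which spans coding positions 445 to 504. The Ftl1 stretch lies on the minus strand at chr7:45458155-45458214 and that of Ftl1-ps1 on the plus strand at chr13:74407048-74407107 of GRCm38.
Ftl1: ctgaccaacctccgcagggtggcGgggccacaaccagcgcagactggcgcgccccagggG
Ftl1-ps1: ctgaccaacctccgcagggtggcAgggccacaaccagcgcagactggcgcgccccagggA
Ftl1-ps1 held 29, 10, 25 and 32 counts at 12 W and 3, 10, 3 and 25 at 65 W, set against 214 counts on Ftl1 over all libraries and 137 on the copy. How the counting divided reads between these rows was not tested. Summed, Ftl1 and Ftl1-ps1 had 40.1 ± 5.21 counts per 10000 at 12 W and 44.0 ± 3.57 at 65 W (SD, n = 4 each). The log2 fold change of the sum was 0.37, with an adjusted p of 0.343 from edgeR. With the copy left out, the ferritin chains had 43.2 ± 5.86 counts per 10000 at 12 W and 52.0 ± 4.31 at 65 W.

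**Figure D3:**
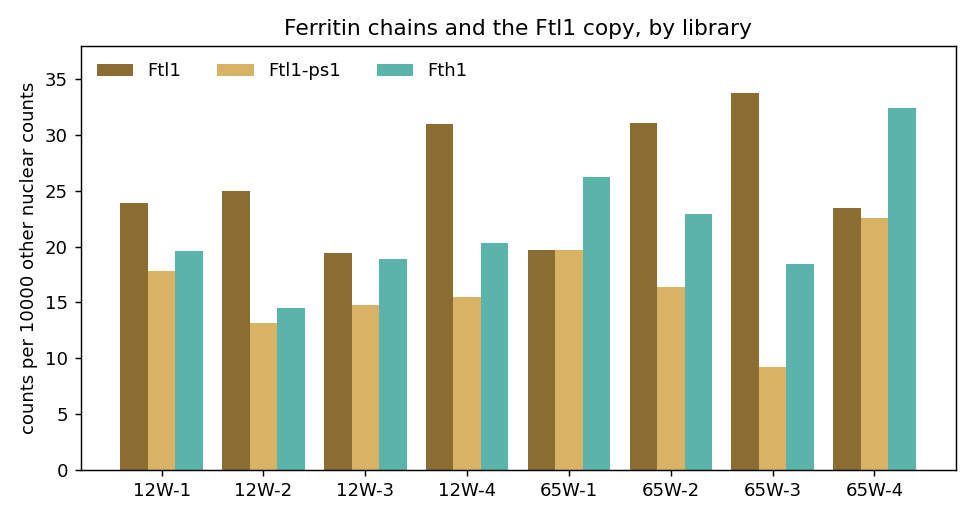
Counts per 10000 other nuclear counts of Ftl1, its near-identical copy Ftl1-ps1 and Fth1 in each of the 8 libraries, as bars from 0. The copy lies below Ftl1 in 7 libraries and level with it in 65W-1, where both rows have 3 counts.

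Superoxide removal was represented almost entirely by Sod1, the copper and zinc enzyme. Sod1 (ENSMUSG00000022982.10, chromosome 16, 90220754 to 90226329) had 47, 12, 31 and 43 counts at 12 W and 3, 26, 6 and 29 at 65 W. Per 10000, the 12 W libraries had 28.8, 15.8, 18.3 and 20.8, and the 65 W libraries had 19.7, 42.6, 18.4 and 26.1. The highest value came from 65W-2, and the other libraries at 65 W lay within the range of those at 12 W. The fitted log2 fold change came to 0.65 (standard error 0.33, 95% interval -0.06 to 1.36), with an adjusted p of 0.333 from edgeR. This value rested on 65W-2, since without that library it was 0.17 (adjusted p = 0.957 from edgeR).

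Sod2 (ENSMUSG00000006818.5, chromosome 17, 13006846 to 13040063), the manganese enzyme of the matrix, had 2, 0, 2 and 6 counts at 12 W and 0, 2, 1 and 2 at 65 W. Sod1 exceeded it in all 8 libraries, with 13.1 times its counts over all libraries. Per kb the ratio was 60.4, which rests on the division by length. Of the 15 counts on Sod2, 9 lay on a non-coding processed transcript of 1138 nt and 6 on the protein-coding transcript of 5861 nt. Sod2 was not kept by the filter on low counts, and its level was 1.33 ± 1.19 per 10000 at 12 W and 2.04 ± 1.51 at 65 W (SD, n = 4 each).

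Among the peroxide-removing enzymes, Gpx1 and Prdx1 had the most counts. Gpx1 (ENSMUSG00000063856.7, chromosome 9, 108338903 to 108340343) had 31, 8, 26 and 34 counts at 12 W and 0, 11, 7 and 26 at 65 W. Libraries of 12 W had levels of 19.0, 10.5, 15.3 and 16.4 per 10000, and the 65 W libraries had 0, 18.01, 21.5 and 23.4. The 0 in 65W-1 allows a level of up to 19.7 per 10000 at the depth of that library, which is above every value at 12 W. The fitted log2 fold change came to 0.46 (standard error 0.37, 95% interval -0.35 to 1.27), with an adjusted p of 0.549 from edgeR.

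Prdx1 (ENSMUSG00000028691.12, chromosome 4, 116685544 to 116700822), a peroxiredoxin that is reduced by thioredoxin, had 19, 6, 29 and 27 counts at 12 W and 2, 14, 5 and 21 at 65 W. Levels per 10000 were 11.7, 7.89, 17.1 and 13.1 in the 12 W libraries, against 13.1, 22.9, 15.4 and 18.9 in the 65 W libraries. The groups overlapped, since 12W-3 lay above 65W-1 and 65W-3. The fitted log2 fold change came to 0.77 (standard error 0.32, 95% interval 0.08 to 1.45), with an unadjusted p of 0.0318 and an adjusted p of 0.198 from edgeR. Without 65W-2 it was 0.48 (adjusted p = 0.645 from edgeR). Of the 123 counts, 120 lay on a protein-coding transcript of 2294 nt and 3 on a transcript with a retained intron.

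Cat (ENSMUSG00000027187.10, chromosome 2, 103453849 to 103485160), the peroxisomal catalase, was seen in every library, with 10, 4, 6 and 12 counts at 12 W and 1, 3, 1 and 8 at 65 W. Its level was 5.19 ± 1.15 per 10000 at 12 W and 5.44 ± 1.85 at 65 W (SD, n = 4 each), a difference of 0.254 that was smaller than either SD. Prdx5 (ENSMUSG00000024953.17, chromosome 19, 6906697 to 6910106) had 2, 2, 0 and 4 counts at 12 W and 0, 3, 0 and 3 at 65 W, or 1.45 ± 1.12 and 1.90 ± 2.38 per 10000 (SD, n = 4 each). All 3 counts of 65W-4 lay on a shorter coding transcript of 679 nt that had no count in the other libraries. Neither gene was kept by the filter on low counts.

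Metallothioneins were close to the limit of detection. Mt1 (ENSMUSG00000031765.8, chromosome 8, 94179082 to 94180327) had 3, 5, 1 and 4 counts at 12 W and 0, 2, 2 and 4 at 65 W. Its level was 2.74 ± 2.63 per 10000 at 12 W and 3.26 ± 2.52 at 65 W (SD, n = 4 each), so that the spread was about as large as the mean. The highest value at 12 W, 6.58 in 12W-2, rested on 5 counts. Mt2 (ENSMUSG00000031762.7, chromosome 8, 94172664 to 94173568) had 1 count in 12W-1, 1 in 12W-4 and 0 in the other libraries. At 65 W this was 0 of 21982 counts, which allows a level of up to 1.36 per 10000, above the 0.325 found over all libraries at 12 W. A difference in Mt2 was therefore not detectable at this depth.

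To compare the age groups, all nuclear genes were fitted together, and 98 of them had enough counts to be tested. Of these 98 genes, 9 passed the threshold on the adjusted p from edgeR, or 9.18%, of which 7 were higher at 65 W (7.14%) and 2 lower (2.04%). The smallest adjusted p-values belonged to the major urinary protein genes Mup18 (log2 fold change 1.66, adjusted p = 0.000548 from edgeR) and Mup3 (1.77, adjusted p = 0.000744 from edgeR), and to A1bg (-2.36, adjusted p = 0.000744 from edgeR). Fth1, Ftl1, Sod1, Gpx1 and Prdx1 were tested, and 0 of these 5 passed the threshold, while 2 of them had an unadjusted p under 0.05 in edgeR, against 18.4% of all genes tested. With the other tools, 0 of 5 passed in DESeq2, which called 7.14% of the 98 genes, and 1 of 5, Fth1, passed in limma-voom, which called 10.2%. The age groups overlapped for all 5, while they did not overlap for 13.3% of the genes tested.

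The fitted changes of these 5 genes were all above 0, from 0.36 (Ftl1) to 0.77 (Prdx1), with a median of 0.65. The median over all 98 genes was 0.026, and 54 of the 98 lay above 0. The size depended on the scaling, as without a scaling factor the median of all genes was -0.18 and the members lay between 0.14 (Ftl1) and 0.54 (Prdx1). Relative to that median, Ftl1 was at 0.32 and Prdx1 at 0.72. The filter on low counts kept only the more abundant members, so these figures do not describe the whole set. Summed counts of peroxide removal were 34.4 ± 5.46 per 10000 at 12 W and 40.7 ± 15.0 at 65 W, and those of superoxide removal were 22.3 ± 6.13 and 28.7 ± 11.9 (SD, n = 4 each). As shares of the other nuclear counts, the differences were 0.0626 percentage points for peroxide removal, with 0.0239 without 65W-4, 0.0290 without 65W-2, 0.0356 without 12W-2 and 0.133 without 65W-1. For superoxide removal the difference was 0.0649 percentage points, with 0.00789 without 65W-2.

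**Figure D4:**
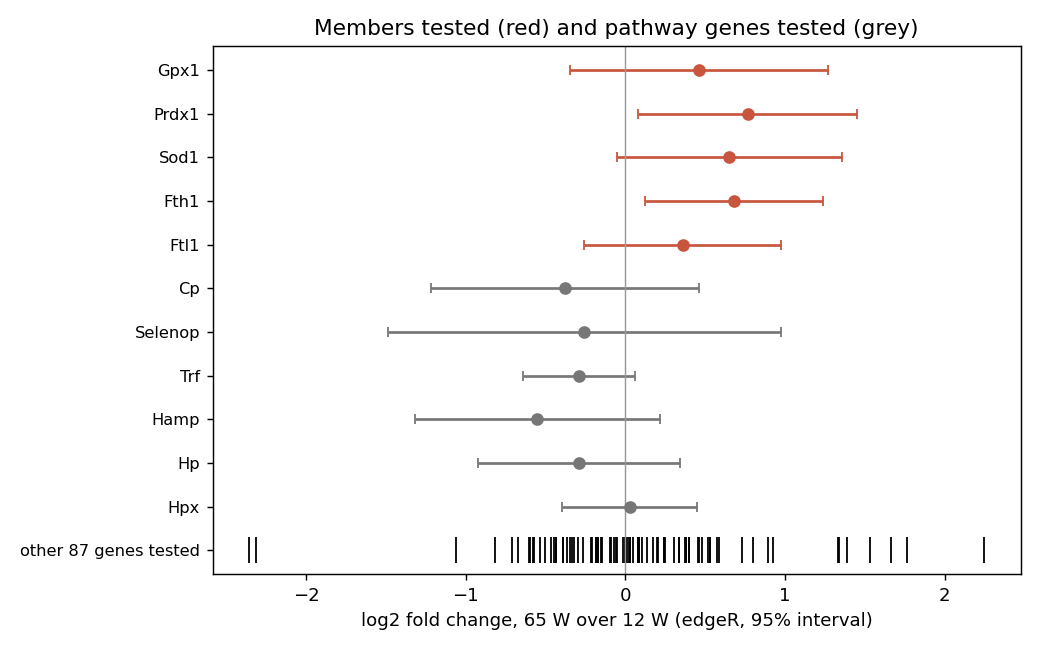
Log2 fold change of 65 W over 12 W with its 95% interval from edgeR for the 5 tested members (red) and the 6 tested genes of the wider pathway (grey); ticks in the lowest line are the other 87 genes tested. The members lie between 0.36 and 0.77, and the 6 pathway genes between -0.55 and 0.026.

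Cat, Sod2, Prdx5 and Mt1, which the filter did not keep, were fitted with all 6449 genes, as was Mt2, for which no fold is given because both groups lay under 3 counts. In that fit 4 genes, or 0.062%, passed the threshold in edgeR, and 0 of them were members. The log2 fold changes were -0.38 (standard error 0.59) for Cat, -0.019 (0.81) for Sod2, 0.46 (0.86) for Prdx5 and 0.17 (0.74) for Mt1, with adjusted p-values from 0.691 to 0.997 for these 4 in edgeR. These values are bound to a scaling that the many genes with few counts dominate. With the scaling factors of the 98 genes, a setting chosen after the data were seen, they became 0.34, 0.69, 1.15 and 0.88, with adjusted p-values from 0.592 to 0.643 in edgeR, and 13 of the 6449 genes, or 0.202%, passed, 0 of them members.

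Other genes of the same pathways were mostly too rare to test. Of 81 listed genes of peroxide and thiol systems, superoxide and copper handling, haem and quinone metabolism, metal binding and iron, 60 had a count, 6 were tested and 0 passed the threshold in either direction, against 9.18% of all genes tested. The 22 detected genes of peroxide removal and thiol systems held 106 counts at 12 W and 36 at 65 W, together fewer than Gpx1 alone with 143. Txn1, the thioredoxin that reduces Prdx1, had 24 counts, the matrix peroxiredoxin Prdx3 had 6 and Gpx4, which reduces lipid peroxides in membranes, had 9.

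The 6 tested genes encode proteins that the liver secretes. Trf, the iron carrier of plasma, had 149 ± 16.4 counts per 10000 at 12 W and 103 ± 15.9 at 65 W (SD, n = 4 each). Its groups did not overlap, as for 13.3% of all genes tested, with 130 to 169 at 12 W and 85.4 to 120 at 65 W. For the other tested genes of the pathway the groups overlapped. The fitted log2 fold change of Trf was -0.29 (standard error 0.16), with an adjusted p of 0.354 from edgeR. Hamp, the hormone that blocks iron export, had 22.3 ± 3.15 and 10.9 ± 7.84 (log2 fold change -0.55, adjusted p = 0.483 from edgeR). Haemopexin (Hpx) had a log2 fold change of 0.026, haptoglobin (Hp) of -0.29, the copper protein ceruloplasmin (Cp) of -0.38 and the selenium carrier Selenop of -0.26, with adjusted p-values from 0.660 to 0.978 in edgeR. Hp and Hpx bind haemoglobin and haem.

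Macrophages and erythroid cells, which also handle iron, were represented by few counts. All 10 macrophage markers had a count, and together they took 16.5 to 32.4 counts per 10000 at 12 W and 14.7 to 39.9 at 65 W. Of 5 erythroid markers 4 had a count, with Hba-a1 at 0, and their sum was 0 to 28.2 per 10000 at 12 W and 0 to 4.51 at 65 W. All 8 hepatocyte markers had a count, with a sum of 1281 to 1711 per 10000 at 12 W and 1072 to 1495 at 65 W. Most of these counts were of Alb, and of the 6 hepatocyte markers tested, Serpina1c was higher at 65 W (log2 fold change 0.92, adjusted p = 0.00806 from edgeR) and the other 5 did not pass the threshold. The part of these cells in the values of the members was not tested.

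The genes whose levels went most closely with those of the summed set over the 8 libraries were Mup3 (Pearson's r of 0.87), Serpina3k (0.81) and Mup11 (0.70), out of the 98 genes tested less the members. These correlations are descriptions over 8 libraries that share the same depths and scaling factors as the set. Mup3, Serpina3k and Mup11 were themselves higher at 65 W, with log2 fold changes of 1.77, 1.34 and 1.53. Their adjusted p-values were 0.000744, 0.00283 and 0.00806 from edgeR. The part of the difference between the age groups in these correlations was not tested. Nor was a part of sex, which is not stated for the 65 W mice.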

How the data were processed

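RNA of purified liver mitochondria was sequenced on a MinION as 8 barcoded PCR-cDNA libraries, 4 per age group, grouped by the age in their labels. The study describes the samples as pooled and does not give the number of flow cells. The authors deposited unnormalized counts per Ensembl transcript from the Epi2Me Labs Differential Gene Expression workflow. The submitters' processing notes name minimap2, SAMtools, edgeR and GRCm38 (mm10). The annotation release is not given in the sources used here. Of 8688 rows, 8595 were matched to GENCODE annotation of GRCm38, and the 93 others held 0.0939% of the counts and were left out.

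Rows were summed per gene. Nuclear rows with at least 80% identity to a mitochondrial transcript over at least 100 nt (blastn 2.17.0) were set aside, and the sum of the others was the library size. Genes kept by filterByExpr were tested with edgeR 4.0.16 (quasi-likelihood, TMM, Benjamini-Hochberg, threshold 0.05, R 4.3.3). The fit was tested on simulated counts. Alternatives were DESeq2 1.42.0, limma-voom (limma 3.58.1), an exact permutation test with a pseudocount of 0.5 counts over 70 assignments, other filters, scalings and row sets, a replicate block, and leaving out libraries. Copies of members had at least 90% identity over at least 200 nt or 80% of the shorter transcript. Counts of every pair of libraries within a group differed beyond sampling noise. The labels call the samples biological replicates. Named genes were all members, the copy Ftl1-ps1, Alb as hepatocyte marker, the tested pathway genes, the 3 smallest adjusted p-values and the 3 genes closest to the set. Further names were picked once values were known: Lars2, Txn1, Prdx3, Gpx4, Hba-a1 and Serpina1c, and in the closing section Slc40a1. Members and lists were chosen with earlier results of these data known.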

Additional observations from a re-analysis of the deposited data

How the results depend on the processing

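The 9 genes past the threshold became 4 without major urinary protein genes, 4 without a filter (13 with the scaling factors of the genes kept), 2 with at least 10 counts in every library, where no member was left to test, 0 in the exact permutation test and 5 to 11 with a library left out, the lowest without 65W-2. In the exact permutation test, 4 libraries against 4 limit the p-values. None of the members passed under any alternative other than limma-voom, where 1 did (Fth1, log2 fold change 0.73), and the count stayed at 0 with each library left out. Without a filter, where the median over all genes was -1.32, the log2 fold changes were -0.32 (Gpx1), -0.16 (Sod1), -0.036 (Prdx1), -0.10 (Fth1) and -0.46 (Ftl1). These 5 were otherwise above 0 except Gpx1 in the exact permutation test (-0.18). With a library left out they ranged over 0.31 to 0.56 (Gpx1), 0.17 to 0.79 (Sod1), 0.48 to 0.87 (Prdx1), 0.54 to 0.67 (Fth1) and 0.13 to 0.54 (Ftl1). Cat changed sign to 0.053 with DESeq2, 0.16 without a scaling factor, 0.29 in the exact permutation test and 0.34 with the scaling factors of the genes kept. Sod2 changed sign to 0.58 with DESeq2, 0.50 without a scaling factor, 0.050 with mitochondrial rows included, 0.48 with limma-voom, 1.22 in the exact permutation test, 0.034 with fewer of the mitochondrial copies set aside, 0.18 without both libraries under 50000 counts, 0.019 without Lars2 and 0.69 with the scaling factors of the genes kept. Prdx5 changed sign to -0.31 with transcripts not summed. With a library left out, Cat ranged over -0.88 to -0.17, Sod2 over -0.30 to 0.70, Prdx5 over -0.061 to 0.89 and Mt1 over -0.17 to 0.66. For these shifts the cause was not tested. Between the age groups, the difference of the summed set stayed above 0 under 17 of 17 alternatives and ranged over 0.121 to 0.350 percentage points with a library left out. Replicate numbers did not pair the libraries (correlations of deviations -0.12, -0.17, -0.26 and 0.17). With the replicate block 10 genes passed, 0 of them members, and Fth1 had 0.68 with an adjusted p of 0.508 from edgeR. Depth limits 65W-1 most, with 13 counts on the set.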

Other observations

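Slc40a1, the iron exporter ferroportin, was noticed after its values were seen and was too rare to be tested. It had 6, 1, 4 and 5 counts in the libraries at 12 W and 0 in each library at 65 W. The 16 counts at 12 W correspond to 2.60 per 10000 other nuclear counts. A count of 0 allows up to 19.7, 4.91, 9.21 and 2.70 in 65W-1 to 65W-4. A difference was therefore not detectable in any single library. Over all libraries at 65 W, 0 of 21982 counts allows a level of up to 1.36 per 10000. That limit is below the 2.60 over all libraries at 12 W and above the 1.32 of 12W-2. The difference between the age groups was not tested.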
